A study of Mus musculus with 24 samples.

Results

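The distal and the proximal end of the mandible of Tgfbr2 knockout mouse embryos were compared across 14879 genes. The members were the 6 knockout mandible arrays, 3 of the distal and 3 of the proximal end with replicate numbers 1 to 3, out of 24 arrays in the series, and they were taken by their labels alone. Differences are given as distal minus proximal, so that a positive value is higher at the distal end, the tip of the jaw. All embryos were on a C57B6 background at embryonic day 12.5. They came from matings of Wnt1cre;Tgfbr2fl/+ with Tgfbr2fl/fl mice, and mutants were picked out by a cleft palate and a defect of the skull vault. Controls were littermates. Their own genotype was not stated, so whether any of them carried Cre is unknown. The other groups compared were the distal and proximal ends of the control mandible and of the knockout maxilla, with 3 arrays each. Both ends of the control maxilla, also with 3 arrays each, entered the fit and its estimate of the spread. The end labels of control maxilla number 1 were in doubt. Whether the 3 arrays of a group stand for different embryos or for pools is not in the labels, so p-values measure the spread between arrays, which may be technical.

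Tgfbr2 encodes the type II receptor that binds TGF-beta ligands and starts signalling through Smad proteins. Wnt1-Cre acts in neural crest cells, which give rise to the skeleton, tendon and connective tissue of the jaw and to glia and part of the sensory neurons, whereas jaw muscle, epithelium, vessels, blood cells and macrophages have other origins and keep the gene. Along the mandibular arch, Bmp4, Hand2, Msx and Alx genes are known for the distal tip, and Barx1, Dlx, Meis and Nr2f genes for more proximal arch tissue. Hox genes mark the second arch and tissue behind it and are off in first arch neural crest cells. In RNA of whole pieces of tissue, fewer cells of a type and less RNA per cell cannot be told apart.

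The values are log2 signals, in which a difference of 1 is a 2-fold difference, and the median of the 6 arrays lay between 7.27 and 7.32. The 30th percentile of these arrays lay between 5.87 and 5.93 and served as the level below which a gene was taken as dim. The brightest of the 3 Tgfbr2 probe sets read 12.68, 12.21 and 11.97 in distal arrays 1 to 3 and 12.65, 12.17 and 12.32 in proximal arrays 1 to 3. The control mandible arrays spanned 11.56 to 12.16, so this probe set was not lower in the knockout. Where its probes lie with respect to the floxed exons was not analysed here, so it does not check the genotype labels. Xist was high and the Y-linked gene Eif2s3y low in all 6 arrays, with Eif2s3y between 3.55 and 3.69, so all 6 carry female RNA. In the control mandible Eif2s3y spanned 3.60 to 10.41, so both sexes were present there, and the part of sex in the comparisons with controls was not tested.

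The arrays with number 1 stood apart from the other 4 in ways that both ends shared. Of 17 cartilage markers tested, 12 were higher in both number 1 arrays than in all 4 others, against 12.6% of all genes. Matn1, a cartilage matrix protein, read 10.14 distally in number 1 and 0.14 less proximally, whereas the other 4 arrays lay between 5.23 and 6.37. Cnmd, a secreted protein of cartilage, read 10.92 and 11.13 in number 1 and 7.30 to 9.37 in the others. Erythroid and cell cycle genes lay the other way. In both number 1 arrays 9 of 10 erythroid markers and 12 of 15 cell cycle genes were lower than in all 4 others, against 21% of all genes. The embryonic globin gene Hbb-bh1 read 11.53 and 11.72 in number 1 and 13.20 to 13.40 elsewhere, and Hemgn, an erythroid nuclear protein, read 5.08 and 4.98 against 7.32 to 7.55. Mki67, a proliferation marker, read 12.71 and 12.93 in number 1 and 13.03 to 13.28 elsewhere. These genes separate the numbers, and some differed between the ends too. In numbers 2 and 3, 7 of 10 erythroid markers and 6 of 15 cell cycle genes were higher in both distal arrays, against 13.3% of all genes. Lower in both were 0 of 10 and 2 of 15, against 24.3%. Of the 17 cartilage markers 0 were higher and 6 lower in both. The erythroid medians were -0.08, 0.16 and 0.15 in numbers 1 to 3. The part of these genes in the results on the ends was not tested.

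1 other array had features of its own. Krt8, Krt18 and Krt19, keratins of simple epithelium, read 12.27, 11.25 and 11.10 in proximal array 3. In the other 5 arrays Krt8 lay between 9.48 and 9.74, Krt18 between 8.99 and 9.55, and Krt19 between 8.14 and 8.69. Fos, an immediate early gene, read 11.32 in proximal array 3 and 8.29 to 9.28 elsewhere. Krt14, a keratin of stratified epithelium, read only 9.49 in that array, but Krt5 read 10.97, below proximal array 1 (11.57) and above the rest. Other epithelium markers went both ways. Cldn4 (10.4), Cldn6 (9.89), Cldn7 (10.01), Esrp2 (8.84) and Grhl3 (9.04) were each higher there than in the other 5 arrays. Krt17 (6.37), Trp63 (9.39) and Sox2 (8.26) were each lower there than in the other 5. The high levels were thus not confined to the simple keratins.

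**Figure D1:**
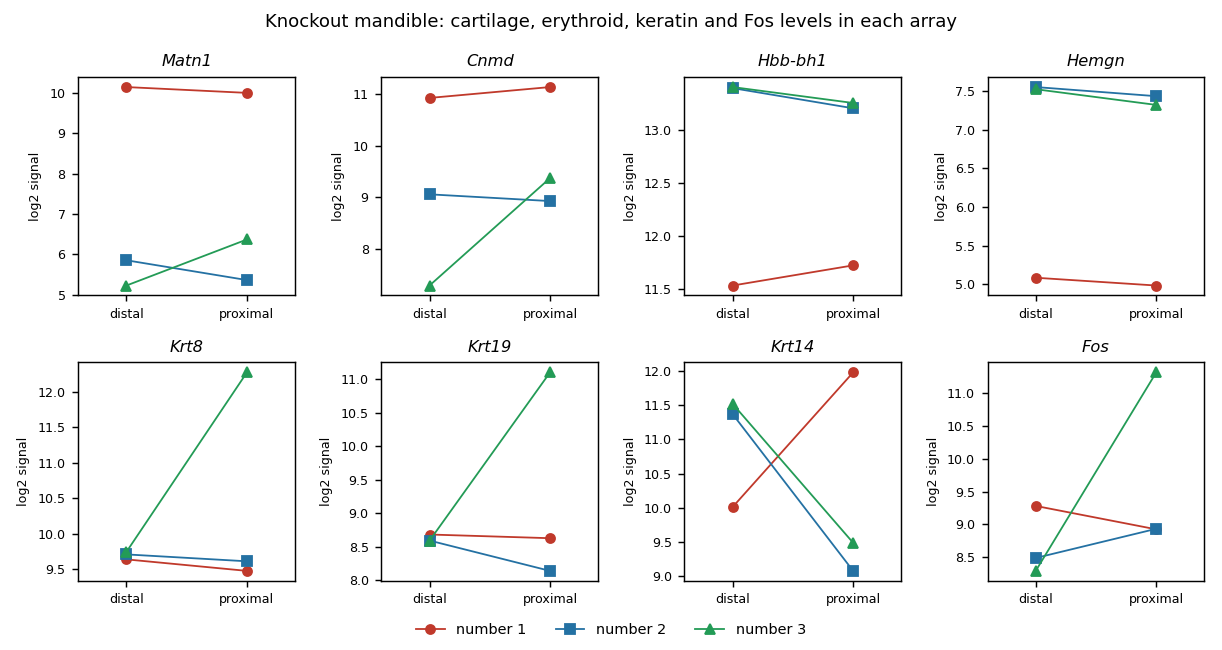
Level (log2 signal, vertical axis) of 8 genes at the distal and proximal end of the knockout mandible, 1 point per array, with lines joining arrays of the same replicate number. Number 1 is high for Matn1 and Cnmd and low for Hbb-bh1 and Hemgn at both ends, and proximal array 3 is alone in its levels of Krt8 (12.27), Krt19 (11.10) and Fos (11.32).

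With all 6 arrays, 0 of 14879 genes (0%) differed between the ends at an adjusted p under 0.05 (limma, Benjamini-Hochberg over all genes). At an unadjusted p under 0.05, 14 genes were higher distally and 58 lower, 0.484% of those tested, and the smallest adjusted p was 1. The same fit called 513 genes (3.45%) between the ends of the control mandible, 165 higher (1.11%) and 348 lower distally (2.34%). It called 917 genes (6.16%) between those of the knockout maxilla, of which those higher distally were 2.9% and those lower 3.26% of all genes tested.

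The differences within each replicate number went in opposite directions. Across the 14879 genes, which are not independent replicates, the difference in number 1 had a Pearson correlation of -0.64 with that in number 2 and -0.57 with that in number 3, whereas numbers 2 and 3 correlated at 0.39. Spearman's rho was -0.43, -0.44 and 0.17. Number 1 went against both other numbers in 6134 genes (41.2%), number 2 did so in 3300 and number 3 in 3613. The differences had a similar spread over genes in each number, with an SD of 0.29, 0.27 and 0.37, so number 1 was not short of differences between its ends. The control arrays are separate arrays, though scaled together with these, and the control mandible difference correlated at -0.66 with number 1, 0.59 with number 2 and 0.66 with number 3.

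**Figure D2:**
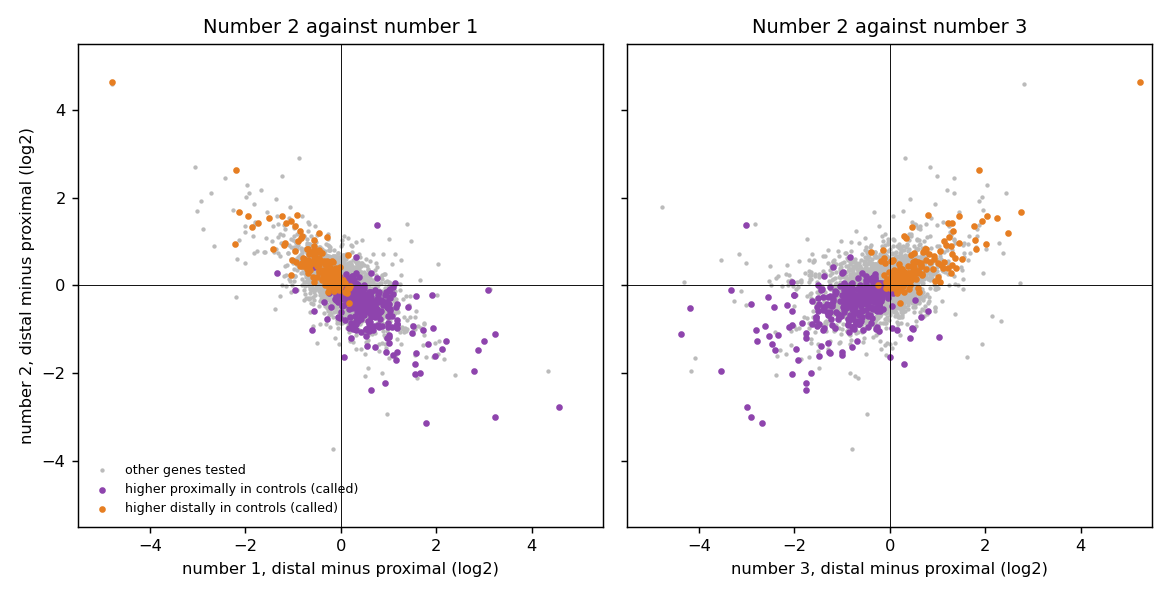
Distal minus proximal difference (log2) of each gene tested in knockout number 2 (vertical axis) against number 1 (left) and number 3 (right); orange and purple points are the genes called higher distally (165) and proximally (348) in the control mandible. The coloured points slope downwards against number 1 and upwards against number 3.

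The genes that separated the ends of the control mandible show the same opposition. Of the 165 called higher distally in controls, 148 (89.7%) were higher distally in knockout number 2 and 150 (90.9%) in number 3, but 12 (7.27%) in number 1. Of the 348 called higher proximally in controls, 311 (89.4%) were higher proximally in number 2, 330 (94.8%) in number 3 and 29 (8.33%) in number 1. Among all genes tested, 57.2%, 47.9% and 38.8% were higher distally in numbers 1, 2 and 3. The difference was also smaller than in controls. The median over the 165 genes was 0.73 in controls and -0.27, 0.29 and 0.37 in the knockout numbers 1 to 3, and over the 348 genes it was -1.26 in controls and 0.40, -0.32 and -0.64. Because these genes were chosen for large differences in the control arrays, their control medians are raised by that choice.

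The mean of the 165 genes minus the mean of the 348 gives a score for each array that is high at a distal and low at a proximal end of the control mandible. In the knockout the distal arrays 1 to 3 scored -0.42, 0.35 and 1.09, and the proximal arrays 0.55, -0.53 and -0.27. The array labelled distal 1 lay among the proximal arrays, and the array labelled proximal 1 lay between distal 2 and distal 3. The control distal arrays, which chose the genes, scored 1.46 to 2.12 and the control proximal arrays -0.62 to -0.46. No knockout array reached the control distal range, and the knockout proximal arrays 2 and 3 lay close to the control proximal arrays. Crossed end labels in number 1 and a real reversal in that number cannot be told apart from these arrays, so no array was moved, and results without both ends of number 1 are given beside those with it.

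**Figure D3:**
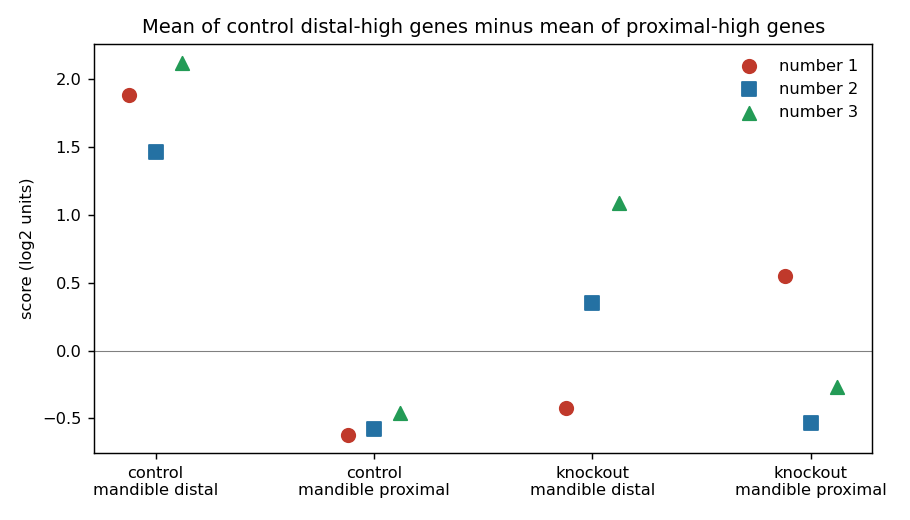
Score (log2 units, vertical axis) of each mandible array, the mean of genes called higher distally in controls minus the mean of those called higher proximally, by group and with the replicate number as symbol. The control arrays chose the genes. In the knockout, number 1 has its distal array at -0.42 and its proximal array at 0.55, the reverse of numbers 2 and 3.

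Without number 1, with 2 arrays at each end and the other groups unchanged, 13 genes (0.0874% of 14879) differed between the ends by limma's adjusted p, 3 higher (0.0202%) and 10 lower distally (0.0672%). The 3 were Alx1, Hecw2 and Lgi2, and the 10 were 3110099E03Rik, Dlx4, Dlx4os, Kcnd2, Ghrh, Slitrk5, Tmem200c, Slitrk4, Bmper and 8430419K02Rik. Since number 1 was doubted from these same values, p-values without it are too small. At an unadjusted p under 0.05 there were 757. With only the groups' own arrays in the fit 0 passed (1276 at an unadjusted p under 0.05), without distal array 3 as well 4 passed, and without proximal array 2 as well 52. The ends of numbers 2 and 3 did not overlap in any of the 13, as in 37.6% of all genes, which their choice by these arrays makes likely. In all 13 genes number 1 pointed the other way, as it did against both other numbers in 41.2% of all genes. All 13 were called in the same direction in the control mandible, where 3.45% of all genes were called. Both fits take the spread from largely the same arrays, so these calls are not independent of each other. The 13 were 2.53% of the 513 genes called in the control mandible. Of the 13, 12 differed by less than in controls, as did 9476 of all 14879 genes. Sizes in controls are raised where genes were called there. None of the 13 was called in the same direction in the knockout maxilla, where 6.16% of all genes were called.

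The promoters of 3 of these genes are shown because these genes had the smallest p, 2 among those lower and 1 among those higher distally, among the 10 of 13 genes that matched the RefSeq promoter table (build GRCm38.p6). Each runs from 250 bases before to 50 bases after the start of transcription, 5' to 3', and capitals mark the letters CATCTG, an E-box of the kind that Twist and Hand proteins bind, on either strand (CAGATG on the other). 3110099E03Rik (higher proximally) lies at chr2:115512152-115512451 on the minus strand, Dlx4os (higher proximally) at chr11:95144803-95145102 on the plus strand and Hecw2 (higher distally) at chr1:54194985-54195284 on the minus strand.
3110099E03Rik: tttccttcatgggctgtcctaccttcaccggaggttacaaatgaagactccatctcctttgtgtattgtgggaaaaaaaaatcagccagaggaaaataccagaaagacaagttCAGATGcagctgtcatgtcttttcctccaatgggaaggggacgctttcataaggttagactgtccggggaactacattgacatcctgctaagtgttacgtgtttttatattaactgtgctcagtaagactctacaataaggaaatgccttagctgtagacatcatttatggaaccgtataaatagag
Dlx4os: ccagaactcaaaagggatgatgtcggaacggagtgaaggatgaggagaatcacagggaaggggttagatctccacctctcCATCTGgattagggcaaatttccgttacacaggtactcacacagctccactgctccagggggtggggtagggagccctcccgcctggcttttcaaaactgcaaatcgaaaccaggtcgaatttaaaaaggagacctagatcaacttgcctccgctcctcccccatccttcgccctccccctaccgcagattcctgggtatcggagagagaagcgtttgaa
Hecw2: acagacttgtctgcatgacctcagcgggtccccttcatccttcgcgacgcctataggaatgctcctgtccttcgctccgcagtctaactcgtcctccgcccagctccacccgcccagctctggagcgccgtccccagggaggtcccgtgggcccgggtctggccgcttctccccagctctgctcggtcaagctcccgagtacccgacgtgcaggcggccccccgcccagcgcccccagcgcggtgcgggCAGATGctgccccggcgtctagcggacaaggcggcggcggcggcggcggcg
CATCTG was found in at least 1 promoter of 4 of the 10 genes, which have 13 promoters, and in 17.2% of all 32851 promoters of 300 bases. The count is over genes and the share over single promoters, so they are not like for like. The same holds for the next motif. TAATTA, a palindrome read by homeodomain proteins such as Dlx and Alx factors, was found in a promoter of 1 of the 10, Ghrh, and in 5.29% of all promoters. A match describes the letters of these windows and nothing more.

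Alx1, a homeobox gene of the frontonasal and distal jaw mesenchyme, had the largest difference of the 13. It read 6.26, 10.79 and 11.91 in distal arrays 1 to 3 and 11.06, 6.16 and 6.68 in the proximal ones. Numbers 2 and 3 were high distally by 4.63 and 5.23 and number 1 had a difference of -4.80, so the groups overlap fully with all 6 arrays. The fitted difference was 1.69 (SE 1.15, limma adjusted p = 1) with number 1 and 4.93 (SE 0.523, limma adjusted p = 0.000406) without it. In the control mandible it was 5.99 (adjusted p = 0.0114), from 12.56 ± 0.19 distally and 6.56 ± 0.48 proximally (SD, n = 3).

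Lgi2, which encodes a secreted leucine-rich repeat protein, read 10.46, 11.06 and 11.49 distally and 11.50, 9.60 and 9.57 proximally. Without number 1 its difference was 1.69 (SE 0.288, limma adjusted p = 0.0304), the same size as the 1.69 in controls. Hecw2, a ubiquitin ligase gene, read 8.16, 8.55 and 8.74 distally and 8.79, 7.80 and 8.04 proximally, a difference of 0.72 without number 1 (limma adjusted p = 0.0257). In both genes the proximal array of number 1 was the highest of the 6. The next genes higher distally were Cited1, a transcriptional coactivator gene, at 1.84 (limma adjusted p = 0.0534) and the transporter gene Slc6a17 at 0.76 (limma adjusted p = 0.0707). Cited1 had a difference of -0.46 in number 1, where neither end reached the distal levels of 10.57 and 11.62 in the other numbers.

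The 3 non-coding genes among the 10 lower distally had a homeobox gene among their nearest neighbours in the RefSeq annotation. Neighbours of the rest of the 10, and the share of all genes beside a homeobox gene, were not looked up. 3110099E03Rik, a long non-coding RNA gene with BC052040 and Meis2 as its nearest protein-coding genes, read 7.84, 5.22 and 4.68 distally and 4.62, 8.21 and 7.59 proximally. Its difference without number 1 was -2.95 (SE 0.213, limma adjusted p = 2.95e-06), and its lower arrays were below the 30th percentile, so the true difference may be larger. 8430419K02Rik, next to Meis1, read 6.07, 4.53 and 4.40 distally and 4.49, 6.07 and 5.66 proximally (limma adjusted p = 0.0464 without number 1). In numbers 2 and 3 only its proximal array 2 was above the dim level, and only slightly, so its difference is rough. In both genes the distal array of number 1 was as high as the proximal arrays of numbers 2 and 3.

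Dlx4, a distal-less homeobox gene of the arches, read 8.68, 6.87 and 5.91 distally and 5.82, 8.35 and 8.32 proximally. Dlx4os, transcribed beside it, read 9.16, 7.40 and 5.94 distally and 6.16, 8.67 and 8.71 proximally. Without number 1 the differences were -1.94 (limma adjusted p = 0.00229) and -2.02 (limma adjusted p = 0.0152). The array does not show whether signal of the pair comes from 1 transcript or both. Meis1 and Meis2, the neighbours of the long non-coding genes, had differences of -1.55 (limma adjusted p = 0.0666) and -0.49 (limma adjusted p = 0.929) without number 1.

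The remaining 6 encode surface, channel or secreted proteins, as far as their roles are known. Kcnd2, a potassium channel gene, read 9.12, 6.59 and 5.95 distally and 7.57, 8.61 and 7.99 proximally. Bmper, which encodes a secreted protein that binds BMPs, read 11.76, 10.15 and 9.36 distally and 10.60, 11.86 and 11.29 proximally. Slitrk4 and Slitrk5, neuronal leucine-rich repeat membrane proteins, differed by -1.42 each, Tmem200c by -1.29, and Ghrh, growth hormone releasing hormone, by -1.99. Limma's adjusted p for these 6 lay between 0.0152 (Kcnd2) and 0.0311 (Bmper). Ghrh read 5.09 and 5.03 distally in numbers 2 and 3, which is dim, and 7.32 and 6.78 proximally.

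**Figure D4:**
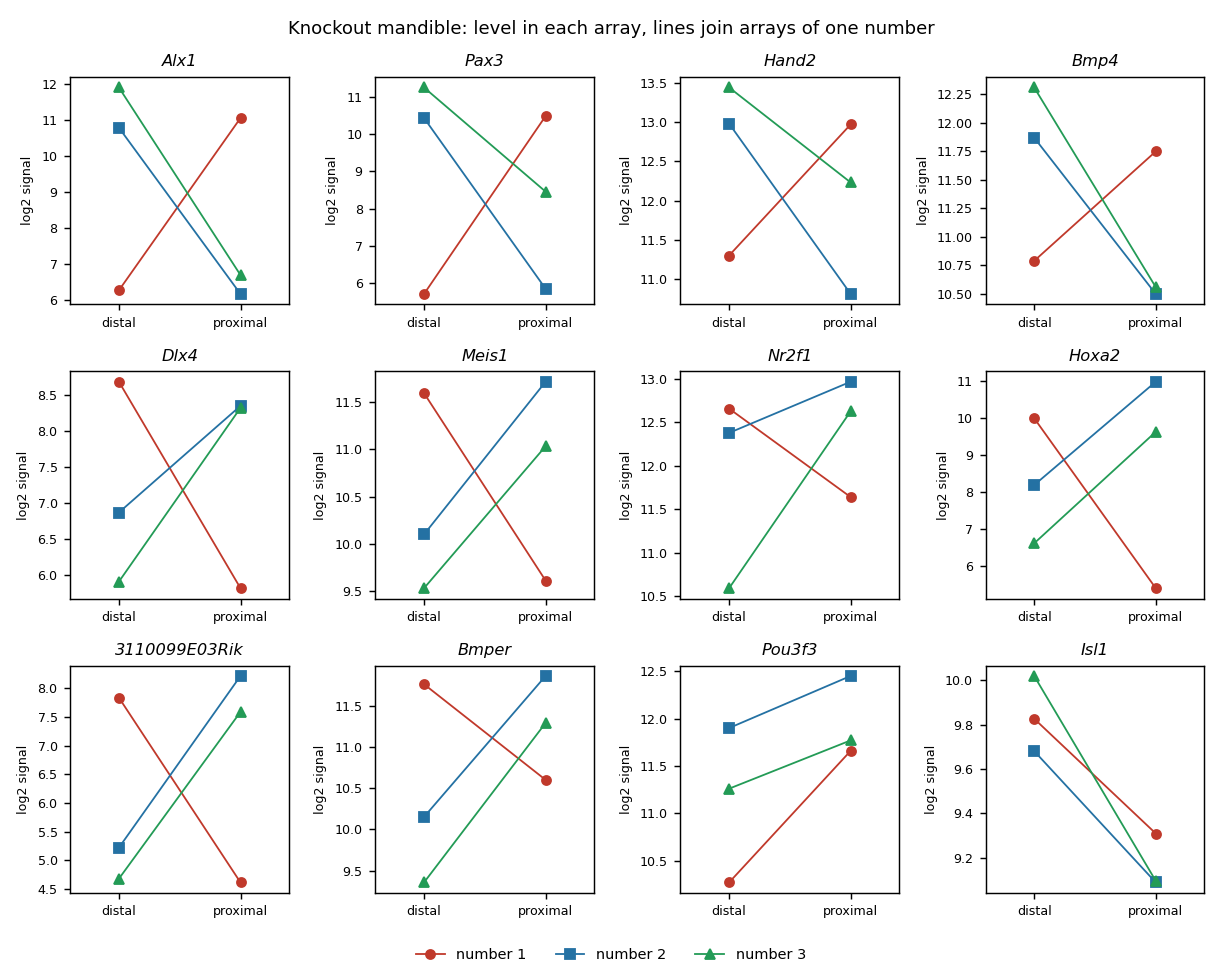
Level (log2 signal, vertical axis) of 12 genes at the distal and proximal end of the knockout mandible, 1 point per array, lines joining arrays of the same number. In the first 10 panels the line of number 1 slopes against those of numbers 2 and 3, and in Pou3f3 and Isl1 all 3 slope the same way.

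The gene lists held 400 genes, of which 372 were on the array and 362 were tested. With all 6 arrays 0 of the 362 were called (0% of all genes were), without number 1 only Alx1 and Dlx4 were (0.0874% of all genes), and 57 were in the control mandible (3.45% of all genes). The medians below are set beside those over all genes tested, which were 0.02, -0.01 and -0.05 in numbers 1, 2 and 3.

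Of the distal jaw genes 8 were tested, and 0 of 8 were higher distally in number 1, 8 in number 2 and 7 in number 3. The shares of all genes were 57.2%, 47.9% and 38.8%. The list medians were -1.06, 0.98 and 1.06 in these numbers and 1.51 in controls. Hand2, a transcription factor needed for the distal mandible, read 11.30, 12.98 and 13.44 distally and 12.97, 10.81 and 12.23 proximally. Bmp4, the BMP ligand of the distal arch, read 10.79, 11.87 and 12.31 distally and 11.75, 10.50 and 10.56 proximally. The distal arrays of numbers 2 and 3 were above their proximal arrays in 7 of the 8 genes, against 13.3% of all genes, and Hand1 was the exception. The differences without number 1 were 1.69 for Hand2 (limma adjusted p = 0.947), 1.56 for Bmp4 (0.213), 1.06 for Alx4 (0.785) and 1.08 for Tbx3 (1), so Alx1 alone passed.

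Msx1 and Msx2, homeobox targets of BMP signalling, ranged from 11.70 to 12.98 and from 9.22 to 10.65, with the lowest value of each in distal array 1. Pax3, known for muscle precursors and neural crest, was not on that list but on that of myogenic factors, and varied nearly as widely as Alx1. It read 5.70, 10.44 and 11.26 distally and 10.49, 5.84 and 8.46 proximally, a difference of 3.70 without number 1 (SE 0.833, limma adjusted p = 0.156). The level in distal array 1 was near that of proximal array 2.

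Of the 12 proximal jaw genes tested, 8 were lower in both distal arrays of numbers 2 and 3 than in both proximal ones, against 24.3% of all genes. The medians were 0.62, -0.57 and -0.69 in numbers 1 to 3 and -1.03 in controls. Nr2f1, an orphan nuclear receptor gene of the neural crest, read 12.66, 12.38 and 10.59 distally and 11.64, 12.97 and 12.63 proximally. Barx1, a homeobox gene of the proximal arch, read 12.78, 12.54 and 11.51 distally and 11.77, 12.81 and 12.91 proximally. In both genes distal array 3 was the lowest and distal array 2 was near the proximal arrays, so the ends of number 2 differed by 0.59 and 0.27 only. Control distal levels were lower, at 9.08 ± 0.98 for Nr2f1 and 10.11 ± 0.81 for Barx1 (SD, n = 3). Lhx6, Lhx8 and Eya1 ran against the list's name, since all 3 were higher distally in numbers 2 and 3 and lower in number 1.

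Of the Dlx genes, which set regional identity within the arch, Dlx1, Dlx2, Dlx3, Dlx4, Dlx5 and Dlx6 were each higher distally in number 1 and lower in numbers 2 and 3. Dlx2 read 10.93, 10.83 and 10.09 distally and 10.11, 11.64 and 11.15 proximally, and Dlx1 read 10.62, 10.11 and 8.81 against 9.63, 10.97 and 10.64. Dlx5 and Dlx6 differed less, by -0.79 and -0.70 without number 1. Endothelin signalling acts upstream of Dlx5 and Dlx6 in the arch, and its ligand, processing enzymes and transducers on the list differed less than the Dlx genes. Ece1, the enzyme that activates the ligand, had -0.16, 0.24 and 0.32. Gnaq and Gna11, which encode G protein subunits, differed by 0.09 or less in each number, and Edn1, the ligand, by -0.04, -0.14 and -0.46.

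All 9 Hox genes tested were higher distally in number 1, 6 in number 2 and 0 in number 3. The shares of all genes were 57.2%, 47.9% and 38.8%. In both distal arrays of numbers 2 and 3, 0 of the 9 were higher and 3 lower, against 13.3% and 24.3% of all genes. The medians were 0.98, 0.20 and -1.69. Hoxa2, which selects second arch identity, read 9.99, 8.19 and 6.62 distally and 5.41, 10.97 and 9.62 proximally. Hoxd1 read 9.95, 9.99 and 6.35 distally and 8.97, 10.51 and 10.54 proximally, so only distal array 3 was low. In the control mandible Hoxd1 read 5.15 ± 0.43 distally and 10.35 ± 0.13 proximally (SD, n = 3). Hoxc4 read 9.39, 7.93 and 6.59 distally and 8.01, 6.54 and 9.43 proximally. The Hox levels in distal arrays 1 and 2 lay beyond those of the control distal ends for Hoxa2 and Hoxd1, and how much tissue behind the first arch each piece held was not tested.

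TGF-beta ligands, receptors and Smads, 16 genes tested, went both ways, with list medians of 0.06, 0.03 and -0.07 in numbers 1 to 3. Of these, 3 were higher and 5 lower in both distal arrays of numbers 2 and 3, against 13.3% and 24.3% of all genes. Smad3 and Smad4, which carry the signal to the nucleus, differed by 0.09 or less in each number. Tgfb2, a ligand, read 12.37, 12.23 and 11.77 distally and 12.14, 12.08 and 12.03 proximally. Tgfb1, another ligand, differed by -0.28, 1.17 and -0.10, the widest value being that of number 2. Tgfbr3, a co-receptor, had differences of 0.16, -0.07 and -0.62 and Tgfb3 of 0.14, -0.36 and -0.48. Smad7, an inhibitor induced by the signal, differed by -0.35, 0.41 and 0.37, so it followed the distal genes. Among 19 response genes the medians were 0.12, -0.00 and -0.40, and 7 were lower in both distal arrays of numbers 2 and 3, against 24.3% of all genes. Ccn2, a matricellular target, read 11.16, 10.16 and 9.89 distally and 10.97, 10.87 and 10.72 proximally, with a difference of -0.77 without number 1 (limma adjusted p = 0.283). Tgfbi, an extracellular matrix protein, differed by 0.42, -0.48 and -0.91.

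In the BMP pathway the 23 genes had medians of 0.04, -0.03 and 0.15 in numbers 1 to 3. Bmpr1b, a type I receptor, read 9.74, 9.18 and 8.14 distally and 8.57, 10.06 and 9.62 proximally, and Bambi, a pseudoreceptor that dampens signalling, read 10.29, 10.76 and 11.38 against 11.01, 9.92 and 10.65. Both were called in controls (-2.31 and 1.66) and neither in the knockout, where the differences without number 1 were -1.18 and 0.78. The Id genes, direct targets, differed between the ends by 0.49 or less in every number. Bmp6, another ligand, differed by -1.56, 1.07 and 0.37. Of the Smads that carry BMP signals, Smad1 and Smad5 differed by 0.15 or less.

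Among 21 FGF pathway genes the medians were -0.15, 0.22 and 0.13. Fgf8, a ligand made by arch epithelium, read 5.54, 7.98 and 7.31 distally and 6.79, 5.49 and 6.33 proximally, and Etv4, a target of FGF signalling, read 8.45, 9.67 and 10.01 against 9.22, 8.54 and 9.17. Their differences without number 1 were 1.74 (limma adjusted p = 1) and 0.98 (limma adjusted p = 0.404). Dusp6, another target, differed by 0.15 or less in every number. So ligand and Etv4 were high at the same end within each number, with number 1 reversed.

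Shh, the hedgehog ligand of oral epithelium, was higher distally in all 3 numbers, at 9.45, 10.30 and 11.10 distally and 8.61, 10.23 and 8.38 proximally, but by 0.07 only in number 2. Its target Ptch1 followed in number 3 alone, with differences of -0.24, -0.07 and 0.97. Foxf1, a mesenchymal hedgehog target, read 8.69, 10.63 and 11.40 distally and 10.70, 9.41 and 10.14 proximally. Foxd1 read 10.69, 9.70 and 11.87 against 8.92, 11.33 and 10.25, so that here number 2, not number 1, went against the other numbers.

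Among 25 Wnt pathway genes tested, 10 were higher in both distal arrays of numbers 2 and 3 (13.3% of all genes were) and 5 lower (24.3%). Wnt5a, a ligand of distal mesenchyme, read 11.92, 12.68 and 13.03 distally and 12.82, 12.07 and 12.04 proximally. Dkk1, an inhibitor, read 10.37, 11.04 and 11.91 against 10.93, 10.01 and 10.12, and Sfrp1 and Sfrp2, inhibitors that bind Wnt ligands, ran the other way with differences of -0.58 and -0.49 without number 1. Axin2, a direct target, differed by 0.25 or less in each number. Rspo1, which strengthens Wnt signalling, was higher distally in every number, by 0.24, 0.89 and 0.51.

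Of 13 retinoic acid genes, 5 were lower in both distal arrays of numbers 2 and 3 and 0 higher, against 24.3% and 13.3% of all genes. Cyp26a1, which breaks down retinoic acid, read 9.49, 9.51 and 8.67 distally and 8.86, 10.17 and 9.76 proximally. Stra6, a retinol receptor, read 8.69, 8.39 and 7.82 distally and 7.60, 8.59 and 8.63 proximally. Both were called in the control mandible, with differences of -1.64 and -1.79, and had -0.87 and -0.50 in the knockout without number 1.

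Genes of tooth-forming mesenchyme and dental lamina had medians of -0.60, 0.52 and 0.76, and 7 of 10 were higher and 2 lower in both distal arrays of numbers 2 and 3, against 13.3% and 24.3% of all genes. Lhx8, a homeobox gene of dental mesenchyme, read 10.30, 12.17 and 12.31 distally and 12.05, 11.39 and 11.56 proximally. Pitx1 read 11.81, 12.82 and 12.34 distally and 12.43, 11.69 and 12.51 proximally, so its ends overlapped in numbers 2 and 3 as well. Pax9 had differences of -0.52, -0.08 and -0.35, lower distally in each number.

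The cartilage list, whose levels were high in both number 1 arrays as given above, had median differences of 0.04, 0.16 and -0.58, and Sox9, the master factor of cartilage, read 10.07, 10.09 and 9.51 distally and 9.59, 10.69 and 10.40 proximally. Bone and tendon markers went both ways, with 2 of 5 and 1 of 7 higher and 1 of 5 and 3 of 7 lower in both distal arrays of numbers 2 and 3, against 13.3% and 24.3% of all genes. Alpl, an enzyme of mineralising tissue, read 9.60, 9.86 and 10.13 distally and 10.76, 8.44 and 8.92 proximally. Tnmd, a tendon membrane protein, read 8.33, 8.92 and 9.36 against 9.55, 7.33 and 7.91, and its difference without number 1 was 1.52 (limma adjusted p = 0.345). Thbs4, a matrix protein of tendon, ran the other way with differences of 0.36, -0.87 and -0.97, and Scx, the tendon transcription factor, differed by 0.19 or less. Alpl and Tnmd were called in the control mandible, at 1.71 and 1.76.

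Sarcomere genes shared 1 direction within each number. All 23 sarcomere genes were higher distally in number 1 and all 23 lower in numbers 2 and 3. Of all genes, 57.2% were higher distally in number 1, and 52.1% and 61.2% lower in numbers 2 and 3. In all 23 both distal arrays of numbers 2 and 3 lay below both proximal arrays, against 24.3% of all genes. The medians were 0.82, -0.42 and -1.08, and -2.90 in controls. Myh3, embryonic myosin heavy chain, read 13.06, 12.21 and 11.59 distally and 12.33, 12.56 and 12.56 proximally. Ttn, the giant sarcomere protein titin, read 11.92, 11.26 and 10.88 distally and 11.41, 11.61 and 11.59 proximally. The proximal arrays were close together, and the spread lay at the distal end. In controls Myh3 read 8.84 ± 2.56 distally and 12.38 ± 0.20 proximally (SD, n = 3). The difference between the genotypes' end differences was 3.35 for Myh3 (SE 1.67, limma adjusted p = 0.961) and was called for 0 of the 23 genes.

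Of 16 myogenic factors tested, 9 were lower and 2 higher in both distal arrays of numbers 2 and 3, against 24.3% and 13.3% of all genes. Taken singly, 15, 7 and 4 of the 16 were higher distally in numbers 1, 2 and 3, against 57.2%, 47.9% and 38.8% of all genes. The list medians were 0.61, -0.13 and -0.48, and -2.11 in controls. Pax3, described with the distal genes, is on this list and ran opposite to most of it, whereas Myog, a factor of muscle differentiation, had differences of 0.52, -0.30 and -0.84. Myf5, an early myogenic factor, read 10.02, 9.52 and 9.52 distally and 9.07, 9.67 and 9.61 proximally, against 6.18 ± 1.88 and 9.49 ± 0.11 in controls. Its end difference was higher than in controls by 3.56 (SE 1.02, limma adjusted p = 0.721). Tcf21, a factor of head muscle progenitors, read 7.91, 8.45 and 9.44 distally and 7.27, 8.17 and 9.25 proximally, whereas its control difference was -2.40. How much muscle each distal piece held was not tested.

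Neuron markers had medians of 0.08, -0.31 and 0.08, against -1.47 in controls, where 10 of 20 were called lower distally, against 2.34% of all genes. Nefl and Nefm, neurofilament subunits of axons, kept the control direction in numbers 2 and 3. Nefl read 11.95, 11.10 and 9.34 distally and 11.32, 11.37 and 11.89 proximally. Pou4f1, a factor of sensory neurons, was dim at both ends with 5.14 to 5.51, whereas it read 5.58 ± 0.22 distally and 8.43 ± 0.42 proximally in the control mandible (SD, n = 3). Stmn2, a neuronal tubulin-binding protein, ran the other way with 10.80 in distal array 3 and 10.77 in proximal array 1, the highest of the 6.

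Of 8 glial and Schwann cell markers 7 were lower in both distal arrays of numbers 2 and 3, against 24.3% of all genes. Sox10, the glial lineage factor, read 10.11, 9.73 and 9.33 distally and 9.71, 10.07 and 9.86 proximally. Fabp7, a lipid-binding protein of glial precursors, read 10.34, 9.13 and 8.64 distally and 9.41, 10.65 and 9.92 proximally. The medians were 0.38, -0.40 and -0.47 against -1.30 in controls, where 6 of the 8 were called lower distally, against 2.34% of all genes.

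Epithelial markers had medians of -0.43, 0.54 and 0.03, and 9 of 20 were higher in both distal arrays of numbers 2 and 3, against 13.3% of all genes. Krt14 read 10.01, 11.37 and 11.52 distally and 11.98, 9.08 and 9.49 proximally, and Trp63, the factor of stratified epithelium, 10.12, 10.94 and 10.73 against 11.12, 9.90 and 9.39. The simple keratins Krt8, Krt18 and Krt19 were high in proximal array 3, as given above. Endothelial markers had medians of -0.05, 0.23 and -0.16, with opposite signs in numbers 2 and 3.

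Macrophage markers had the signs of the sarcomere genes in most cases. All 13 were higher distally in number 1, against 57.2% of all genes, and 10 were lower in both distal arrays of numbers 2 and 3, against 24.3%. C1qb, a complement gene of tissue macrophages, read 10.12, 8.32 and 8.76 distally and 9.19, 8.90 and 9.39 proximally. The mean level of the 13 markers was 9.35 in distal array 1 and 8.37 to 8.97 in the other 5. Immediate early genes were lower in both distal arrays of numbers 2 and 3 in 8 of 11 cases, against 24.3% of all genes, and Egr1 read 11.47, 10.42 and 9.90 distally and 11.17, 10.67 and 11.20 proximally. The part of macrophage content and of early gene activity in the other differences was not tested.

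Markers of neural crest mesenchyme were bright at both ends, with median differences of -0.07, 0.03 and 0.01, and 8 of the 10 lay between -0.40 and 0.35 in every number. Prrx1, a factor of limb and face mesenchyme, lay between 13.26 and 13.46 in the 6 arrays, and Twist1 between 12.58 and 12.96. The defining markers of the tissue were thus present in every array. Tfap2a and Tfap2b, neural crest and ectoderm factors, were the exception, with -0.87 and -1.35 in number 1 and 0.52 and 0.82 in number 2, though Tfap2b differed by 0.01 only in number 3. Of 8 eye and forebrain markers tested, Pax6, Rax, Otx2 and Six6 lay below the dim level in all 6 arrays, and Six3, Emx1 and Crybb1 above it in all 6. Lhx2 read 6.77, 6.40 and 5.84 distally and 5.89, 6.86 and 7.11 proximally, with number 1 reversed. Cell cycle genes had medians of -0.08, 0.02 and 0.07 between the ends.

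**Figure D5:**
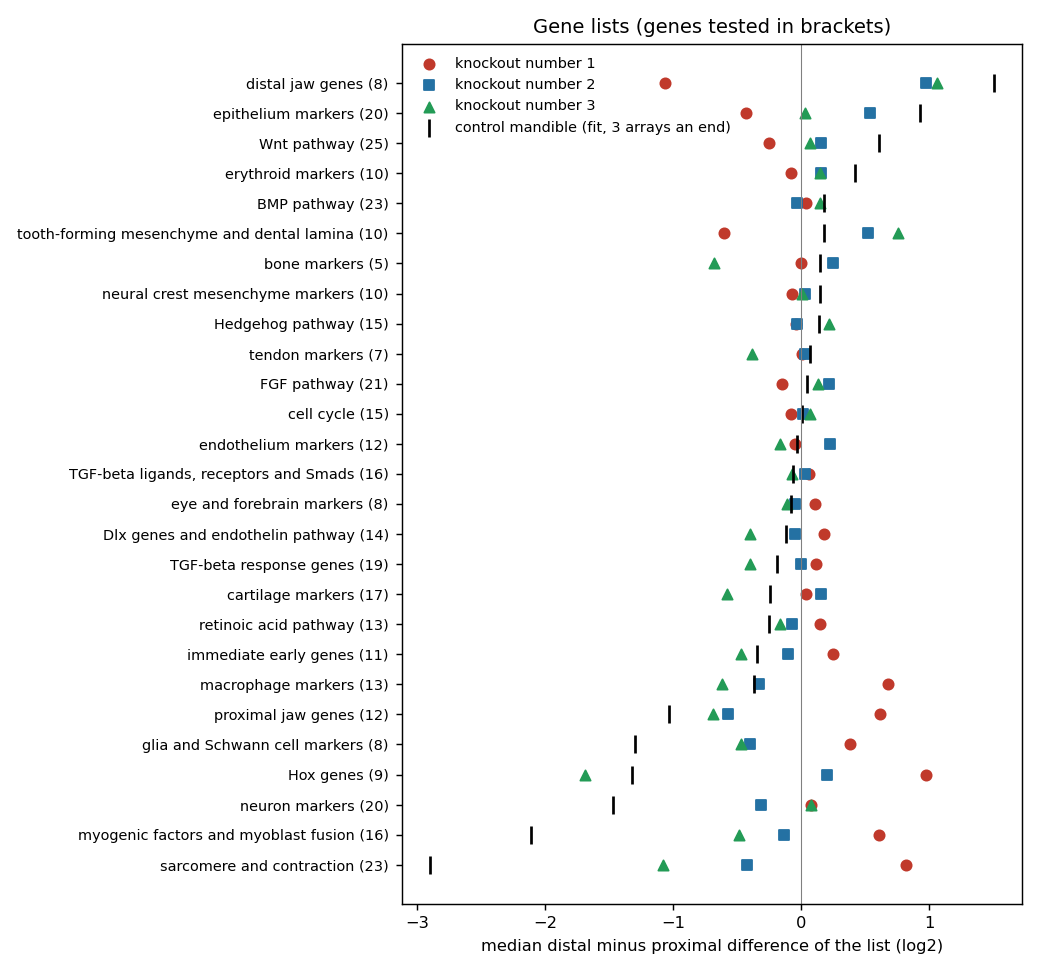
Median distal minus proximal difference (log2, horizontal axis) of each gene list in knockout numbers 1, 2 and 3 and, as a bar, in the control mandible fit. Number 1 lies on the other side of 0 from numbers 2 and 3 for most of the lists. Among them are distal jaw, proximal jaw, sarcomere, myogenic, glial, macrophage, FGF, Wnt, retinoic acid, tooth and epithelium genes. The control bars lie farther out for sarcomere (-2.90), myogenic (-2.11) and neuron (-1.47) genes.

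Of all genes, 825 were higher and 1001 lower distally in every number, 12.3% of those tested. All 3 distal arrays lay above all 3 proximal ones in 108 genes (0.726%) and below them in 176 (1.18%). The genes named here were taken for the largest smallest difference among those with 1 sign in every number, so their values are a description. Isl1, a homeobox gene of distal arch epithelium and of neurons, read 9.83, 9.68 and 10.02 distally and 9.31, 9.09 and 9.10 proximally. Every distal array lay above every proximal one, and the differences within numbers were 0.52, 0.59 and 0.92 (limma adjusted p = 1). It was not called in the control mandible, where the difference was -0.41. Nhlh2, a neuronal factor, differed by 0.70 and 0.35 in numbers 1 and 2 and by more in number 3. Its proximal levels of 5.06 to 5.64 were below the dim level, as was 5.79 in distal array 1. In the control mandible its difference was -1.40, which was not called. Lbx1, a factor of migrating muscle precursors, differed by 0.42, 0.43 and 0.30. The others higher distally were Ttr, Rspo1, Foxj1, 4930456A14Rik, Cavin2, AW551984 and Arhgap25.

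Pou3f3, a factor of the proximal arch, led the genes lower distally in every number. It read 10.27, 11.90 and 11.26 distally and 11.66, 12.45 and 11.77 proximally, a difference of -0.82 (SE 0.519, limma adjusted p = 1), and distal array 2 overlapped the proximal range. Pantr1, the non-coding RNA gene next to Pou3f3, read 9.25, 11.65 and 10.19 distally and 11.46, 11.91 and 11.56 proximally, and was likewise lower distally in each number. The neighbours thus had distal array 1 as their lowest array, whereas number 1 was reversed in most genes of the control pattern. In the control mandible Pou3f3 and Pantr1 had differences of -0.44 and -1.19, neither of them called. Gabrb2, a subunit of the GABA receptor, read 6.77, 7.09 and 6.50 against 7.07, 7.85 and 7.59, and Vgll3, a transcriptional cofactor, 10.49, 11.11 and 10.42 against 11.19, 11.40 and 11.25. The others were Slc6a15, Cldn11, Npy1r, Lrrtm4, Lurap1l and Sec16b.

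The genes with the smallest unadjusted p over all 6 arrays differed little. Stom, which encodes the membrane protein stomatin, read 10.08, 10.21 and 10.26 distally and 9.94, 9.52 and 9.81 proximally, a difference of 0.43 (SE 0.102, limma adjusted p = 1). Nkx2-5, a homeobox gene of heart and pharyngeal arches, read 7.32, 7.58 and 8.36 against 7.37, 6.99 and 7.30. Cdh8, a cadherin, was lowest in distal array 3 with 4.73 and differed by -0.70 (limma adjusted p = 1). Tmem158, AF067061 and A930007I19Rik followed on the higher side with differences of 0.20 to 0.43, and LOC432842, Stxbp6, Tcn2 and 5033430I15Rik on the lower side with differences of -0.44 to -0.26. Without number 1 Cdh8 differed by -1.02 (limma adjusted p = 0.156).

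Whether the ends of the mandible differ otherwise in knockouts than in controls was tested as a difference of differences. With all arrays 0 of 14879 genes (0%) passed (limma, adjusted p), 774 had an unadjusted p under 0.05 and the smallest adjusted p was 0.502. Without number 1 of the knockout mandible 0 passed and 273 had an unadjusted p under 0.05. The largest differences among those with the smallest p were on the positive side, where the control has a steep fall from proximal to distal. Nr2f1 differed by 3.19 (SE 0.679, limma adjusted p = 0.502) and by 2.41 without number 1, and Nr2f2, its close relative, by 1.68 and 1.36. Neurod1, a neurogenic factor, differed by 3.75, with 4.85 to 6.11 in the 6 knockout arrays against 5.85 ± 0.89 distally and 9.31 ± 0.55 proximally in controls (SD, n = 3). Tenm4, a teneurin, followed with 0.81. On the negative side were Plpp2 (-0.59), Pdlim2 (-1.39), Decr1 (-0.60) and AA414768 (-1.01), whose control differences were 0.53 to 1.38. For all 8 genes the adjusted p was 0.502, so none of these differences holds up against the spread between arrays over all genes.

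Against the knockout maxilla, 5 genes (0.0336%) differed in their end difference by limma's adjusted p, 4 positive (0.0269%) and 1 negative (0.00672%). They were Ppp1r1c at 5.28 (limma adjusted p = 0.00807), Pou4f1 at 4.84 (0.00807), Sncg at 4.12 (0.0463), Prrxl1 at 3.87 (0.0463) and Dmrta1 at -2.19 (0.0463). In the mandible Pou4f1 read 5.26, 5.16 and 5.26 distally and 5.14, 5.51 and 5.44 proximally, and Ppp1r1c, a phosphatase inhibitor subunit gene, 6.18, 5.76 and 5.62 against 5.98, 6.62 and 6.01. The ends of the mandible hardly differed in either gene. The maxilla set the results, with 5.42 ± 0.12 distally and 10.40 ± 1.65 proximally for Pou4f1 and 5.75 ± 0.07 and 11.38 ± 1.61 for Ppp1r1c (SD, n = 3). This direction was not particular to the maxilla. The control mandible had differences of -2.86 for Pou4f1, -3.02 for Ppp1r1c and -2.35 for Sncg, all called. For Prrxl1 it had -1.65, which was not called. The count of 5 genes against the maxilla rests on few arrays. It was 1001 without knockout maxilla proximal array 3 and 0 without both ends of number 2 or of number 3, or with only the groups' own arrays in the fit. Dmrta1 read 4.17 to 4.92 in the mandible, below the dim level in all 6 arrays, and 7.43 ± 0.54 distally and 5.47 ± 0.56 proximally in the maxilla. Without number 1 of the mandible 10 genes passed (0.0672%), 4 positive (0.0269%) and 6 negative (0.0403%). Among them were 3110099E03Rik at -2.70 (limma adjusted p = 0.000442), Tmem200c at -2.05 (0.00833), Dlx4 at -2.17 (0.0142) and Dlx4os at -2.19 (0.0479), which were chosen for mention after their values were seen, and again Ppp1r1c, Pou4f1 and Dmrta1 but not Sncg (0.0904) or Prrxl1 (0.106). Pou4f1 and Sncg mark sensory neurons and moved with this result in the maxilla, and the part of neuron content in it was not tested.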

How the data were processed

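Per the submitters' processing notes, the authors made the deposited log2 signals of 45101 probe sets on 24 arrays by RMA, with no version named. RMA scales all arrays together, so a difference is relative to the whole array. Probe sets with 1 gene symbol (34945) were kept, each of 18193 genes was read from its brightest probe set on average, and 14879 genes above the 30th percentile in at least 3 arrays were tested. Limma 3.58.1 in R 4.3.3 fitted 8 group means to all 24 arrays (16 residual degrees of freedom, 14 without number 1) with Benjamini-Hochberg adjustment, and a gene was called at an adjusted p under 0.05. The fit was tested on simulated data.

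Deviations from the group means correlated between the ends at -0.03, 0.15 and -0.05 for numbers 1 to 3, and the numbers were not taken as pairs. This check cannot decide whether they are pairs, since the group means rest on end labels that are in doubt for number 1. Both number 1 arrays share levels of cartilage, erythroid and cell cycle genes. They lay above all 4 others in 12.6% of all genes and below them in 21%. The arrays, gene lists and tests were chosen with earlier results of these data known. Genes named were the 5 with the smallest p in each direction with and without number 1, the 10 in each direction with 1 sign in all numbers and the largest smallest difference, the 4 in each direction with the smallest p in the difference from controls, the genes called against the maxilla, and members of the 27 lists. The remaining genes called without number 1 and list members given as examples were chosen after their values were seen. Of the lists, Drgx stands on the array as Prrxl1 and was not counted. Alternatives changed the block, filter, probe sets, scaling, prior, weights and arrays.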

Additional observations from a re-analysis of the deposited data

Results flagged for a closer look

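The end difference of the knockout mandible and that of the knockout maxilla differed, by the test of that difference, in 5 genes. The mandible minus maxilla value was 5.28 for Ppp1r1c, 4.84 for Pou4f1, 4.12 for Sncg, 3.87 for Prrxl1 and -2.19 for Dmrta1 (limma adjusted p 0.00807 to 0.0463). In Dmrta1 all 6 mandible arrays lay below the dim level, and in the other 4 the ends of the mandible differed by 0.35 or less over the groups while the maxilla differences were -5.63 to -3.85.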

How the results depend on the processing

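Over all 6 arrays the count of 0 genes stayed 0 under every alternative except those without both ends of number 1. It was 13 without them and 16 when control maxilla number 1, whose ends were also doubted, was left out with them, and leaving out arrays gave 0 to 13. With the replicate number as a block it was 0 in each of 3 fits (101 to 118 genes at an unadjusted p under 0.05), and since the numbers were not taken as pairs this says nothing about the size of an effect. The 13 genes found without number 1, a comparison chosen after seeing the data, became 0 with only the groups' own arrays, 7 with probe sets averaged and 52 with array weights. With the replicate block they became 3 (groups' own arrays), 7 (all arrays) and 21 (random block). Leaving out a further array gave 4 (distal 3), 23 (distal 2), 21 (proximal 3) and 52 (proximal 2), of which 4, 9, 9 and 4 were among the 13. The other alternatives gave 11 to 16.

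The difference from controls, 0 genes, became 1 with only the groups' own arrays, 87 with array weights, 1 without both ends of number 2, and 0 to 3 without arrays. The 5 genes of the difference from the maxilla became 0 with only the groups' own arrays, with or without the replicate block, 14 with a random block, 3 with probe sets taken singly, 2 with cyclic loess, 1205 with array weights and 8 with doubted ends left out. Without both ends of number 1, 2 or 3 they became 10, 0 and 0, and without 1 array 2 to 1001, the last without knockout maxilla proximal array 3. The cause of these shifts was not tested.

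Among the genes named, the sign over all 6 arrays turned only where arrays were left out. Alx1 ranged from -0.09 (without number 3) to 4.93, and 3110099E03Rik from -2.95 to 0.16, with 0.11 without number 3. Dlx4 had 0.23 without number 2 and 0.69 without number 3, and -1.18 to 0.28 without 1 array. Dlx4os had 0.11 and 0.86, and -1.19 to 0.43. The fits rest on 3 arrays a group, or 2 without number 1, which limits their precision, and genes below the dim level have only a rough level.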
